A study of Mus musculus with 10 samples.

Results

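The lysosome genes described here were the 130 genes whose pathway annotation in the authors' expression table lists the KEGG map Lysosome (ko04142), of 21959 genes in the table. Their names divide them into 16 cathepsins, 10 proton pump genes (9 with symbols starting Atp6, and Tcirg1), 21 membrane proteins, 46 other hydrolases and 37 genes of enzyme sorting, coats and enzyme cofactors. RNA was sequenced from 10 tumors grown from cells that the study names 4T1, a mammary carcinoma line of BALB/c origin, implanted under the abdominal skin of young female BALB/c mice with an intact immune system. The 5 tumors of the exercise group (E) came from mice with voluntary wheel running and the 5 of the non-exercise group (NE) from mice without it, and tumors were taken at day 21. Neither the labels nor the methods name a genetic change or drug for these mice, and both groups received the same tumor cells. The labels number the tumors without stating the animal each came from, so p-values measure the spread between these tumors. The E tumors had totals of 15045613 to 20646763 counts, and the NE tumors 18706032 to 23092251.

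Marker genes of several cell types differed between the tumors. Of 8 genes of mammary epithelium, 4 passed the filter on low counts. Krt8 and Krt18, the luminal keratins, had mean FPKM (fragment counts scaled for transcript length and library total) of 0.226 and 0.431. Krt19 was the most abundant at 7.92. The identity of the tumor line was not tested. Summed over 8 genes, the epithelial level was 12.7, 8.37, 10.4, 8.65 and 10.6 FPKM in E1 to E5 and 11.7, 11.1, 14.03, 14.1 and 19.1 in NE1 to NE5. Skeletal muscle RNA was highest in NE4, with 9822 FPKM summed over 12 muscle genes against 3.86 in NE1 and at most 1281 in the other 8 tumors. Tumor NE1 was the poorest in macrophage RNA, and E5 was the richest in fibroblast RNA (1791 FPKM over 8 genes) and neutrophil RNA (339 FPKM over 10 genes, at most 40.1 elsewhere). In bulk RNA of this kind, fewer cells of a type and less RNA per cell cannot be told apart.

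Lysosomes are the acid compartments in which cells break down protein, glycan, lipid and nucleic acid. The vacuolar proton pump acidifies them, cathepsins and other hydrolases work at that low pH, and proteins of the limiting membrane protect it and export the products. New hydrolases are tagged with mannose 6-phosphate in the Golgi and carried onward by receptors, adaptors and clathrin. Transcription factors of the TFEB family bind a CACGTG core, the center of the CLEAR element, in promoters of many of these genes. Macrophages and osteoclasts are among the cells richest in lysosomal enzymes, and in tumors secreted cathepsins also cut extracellular matrix.

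RefSeq promoter windows (GRCm38.p6, 250 bases before to 50 after a start site) were at hand for 103 of the 130 genes. The core CACGTG, which reads the same on both strands, stood in the window of 24 of the 103 (23.3%), against 2187 of the 27025 genes of the promoter table (8.09%). The longer form GTCACGTG, or CACGTGAC on the opposite strand, stood in 20 (19.4%) against 689 of all genes (2.55%), and every gene with it also counts under the core. The palindrome TCACGTGA was found in 10 (9.71%) against 304 of all genes (1.12%). A gene with several start sites counted once if any window held the letters. By role the core was present in 4 of 12 cathepsins (Ctsa, Ctsd, Ctsf and Ctsl), 2 of 7 pump genes, 4 of 17 membrane proteins, 8 of 36 other hydrolases and 6 of 31 sorting and cofactor genes. A match of letters is a description and was not tested for binding here. One window per role is printed, with a second hydrolase and a second membrane protein that return in the comparison of levels. Every printed window holds not only the core but also the longer form, as GTCACGTG or CACGTGAC. Each window is 26 bases, 5′ to 3′ on the strand of the gene, with the core in capitals.
Ctsd (aspartic cathepsin, chr7:142387910-142387935, minus strand, core centered at -95 from the start site): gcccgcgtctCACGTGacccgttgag
Atp6v0b (proton pump, chr4:117887350-117887375, minus strand, -33): gcgcgggggtCACGTGgggtcggcgc
Lamp1 (membrane protein, chr8:13159123-13159148, plus strand, -25): tgccgactggCACGTGaccacatcac
Cd164 (membrane protein, chr10:41519403-41519428, plus strand, -84): ccgggctgctCACGTGaccggcgcgc
Lgmn (hydrolase, chr12:102439126-102439151, minus strand, -46): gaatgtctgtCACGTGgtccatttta
Glb1 (hydrolase, chr9:114401020-114401045, plus strand, -45): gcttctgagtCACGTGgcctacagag
Igf2r (sorting receptor, chr17:12769739-12769764, minus strand, -45): acgaggacgtCACGTGagcaggaggc

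The core was absent from the windows of Ctss, Ctsk, Ctsz, Ctsc, Ctso and Ctsg. Among the lysosome genes tested, the 24 with the core had a median level of 23.2 FPKM and a median SD between tumors of 0.135 on the log2(CPM + 1) scale (CPM, counts scaled to the library total). The 67 with a window and no core had 15.7 FPKM and an SD of 0.162. These are descriptions of the 2 sets, and no test was made between them.

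In total, lysosome genes took 1.88% ± 0.143 of all counted reads (SD over 10 tumors), from 1.62% in NE1 to 2.14% in E5. It averaged 1.94% ± 0.148 in the 5 E tumors and 1.81% ± 0.115 in the 5 NE tumors (SD), and the groups overlapped. By role, 0.610% of reads lay on sorting and cofactor genes, 0.504% on cathepsins, 0.359% on other hydrolases, 0.329% on membrane proteins and 0.0767% on the 10 pump genes. Of the 130 genes, 116 passed the filter, all with reads in every tumor, and 12 of these had a mean of at least 100 FPKM while 7 stayed under 1. Per transcript length, the most abundant was Psap, the precursor of the saposins that present lipids to hydrolases, at 776 FPKM. It was followed by Ctss (496), Ctsb (337), Ctsz (245), the membrane glycoprotein Lamp1 (219) and Lgmn (214), the asparaginyl protease that matures several cathepsins. Next came Npc2 (154), a cholesterol carrier, then Cd63 (128), Cd164 (125) and Cd68 (117), 3 glycoproteins of the late endosome and lysosome membrane.

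The cathepsins formed a ladder of levels from 496 FPKM for Ctss to 0.434 for Ctsf. Ctss, a cysteine protease of antigen-presenting cells, measured 603, 466, 389, 480.4 and 617 FPKM in tumors E1 to E5 and 175, 470.4, 602, 605 and 554 in NE1 to NE5. NE1 was far below the other 9 tumors, which lay between 389 and 617 with E and NE mixed. Ctsb, an abundant cysteine protease of most cells, measured 389, 332, 299.8, 334 and 395 FPKM in tumors E1 to E5 and 337, 305, 327, 322 and 326 in NE1 to NE5. It varied little, and E5, E1 and NE1 were its 3 highest tumors. Ctsz, a carboxypeptidase, measured 279, 244, 227, 227 and 278 FPKM in tumors E1 to E5 and 221, 243, 258, 233 and 239 in NE1 to NE5, also with overlapping groups. Ctsc, which activates granule proteases, measured 137, 111, 91.4, 100.04 and 105 FPKM in tumors E1 to E5 and 44.02, 113, 137, 125 and 96.9 in NE1 to NE5 and was lowest in NE1, as Ctss was. Ctsl and Ctsd, the other main endopeptidases, had means of 101 and 83.4 FPKM, with the highest Ctsl in E5 (146) and the highest Ctsd in E5 (104) and E1 (104). Every tumor had more Ctsb than Ctsz and more Ctsz than Ctsc, without overlap of the ranges. In the order of mean levels, Ctss and Ctsb, Ctsc and Ctsl, Ctsl and Ctsd, Ctsd and Ctsk, Ctsk and Ctsa, Ctsa and Ctsh, Ctsh and Ctso, Ctsw and Ctsg, and Ctse and Ctsf were neighbors whose ranges over tumors overlapped.

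Lower in the order, Ctsa, the protective carboxypeptidase of the neuraminidase complex, averaged 43.3 FPKM, Ctsh, an aminopeptidase, 25.6 and Ctso, a little studied cysteine protease, 14.6. Ctsw, a cathepsin of cytotoxic lymphocytes, averaged 5.54 FPKM and Ctsg, a serine protease of myeloid granules, 5.49. Ctsg ran from 1.48 FPKM in E5 to 11.8 in E4, both of the E group. Ctse averaged 0.602 FPKM and Ctsf 0.434, and Ctsf exceeded 1 only in E5 (1.41) and NE4 (1.06). Of the 14 that passed the filter, 8 were lowest in NE1. Ctsj and Ctsm, cathepsins of the mouse placenta, had no read in any tumor.

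**Figure D1:**
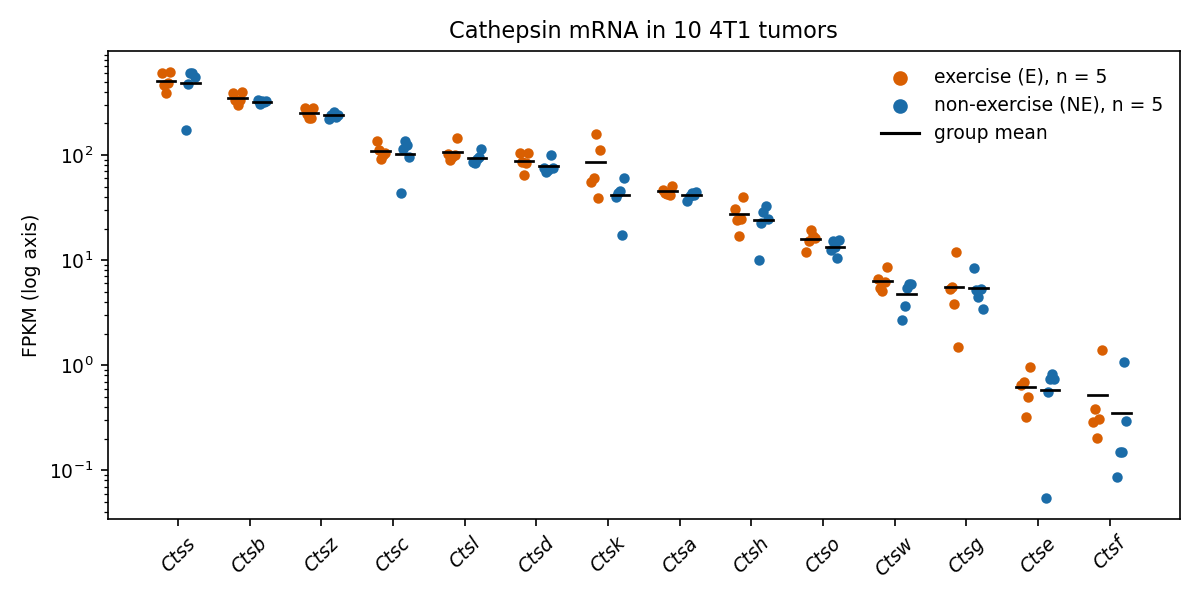
FPKM (log axis) of the 14 cathepsins that passed the filter, with 1 point per tumor (orange E, blue NE, n = 5 each) and a bar at each group mean, ordered by mean level. The points of the groups overlap for every cathepsin, NE1 is the low blue point of Ctss, Ctsc and Ctsh, and Ctsk has its 2 highest points in E.

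Cathepsins were the role with the widest spread between tumors. The median SD of log2(CPM + 1) over the 10 tumors was 0.445 for cathepsins, 0.135 for pump genes, 0.139 for membrane proteins, 0.138 for other hydrolases and 0.123 for sorting and cofactor genes. Over all 13517 genes tested it was 0.179, with the middle 50% between 0.121 and 0.289. An SD above 0.5 was seen for 9 of the 116 lysosome genes and 1284 of all genes. The 9 were Ctsk (0.849), Ctsf (0.814), Ctsg (0.634), Ctss (0.559), Ctsh (0.553) and Ctse (0.520), with the tartrate-resistant acid phosphatase Acp5 (0.747), the pump subunit Atp6v0d2 (0.708) and the aspartic protease Napsa (0.524). Among the steadier genes, Lamp1 ran from 199.9 to 235 FPKM, 1.17-fold, and Clta, a clathrin light chain, from 80.1 to 95.4, 1.19-fold. Sorting genes were not all so level, and Sort1, a sorting receptor, ran 2.52-fold. Ctsk ran 9.19-fold, and the scarce Ctsf and Ctse 16.4-fold and 17.7-fold. Of the 116 genes, 42 had their lowest FPKM in NE1, 42 in NE4, and 49 had their highest in E5. FPKM carry no scaling by TMM (trimmed mean of M values), whose factor was lowest in NE4 (0.951). The same counts over all genes were not made, so these are not shown to be particular to lysosome genes.

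**Figure D2:**
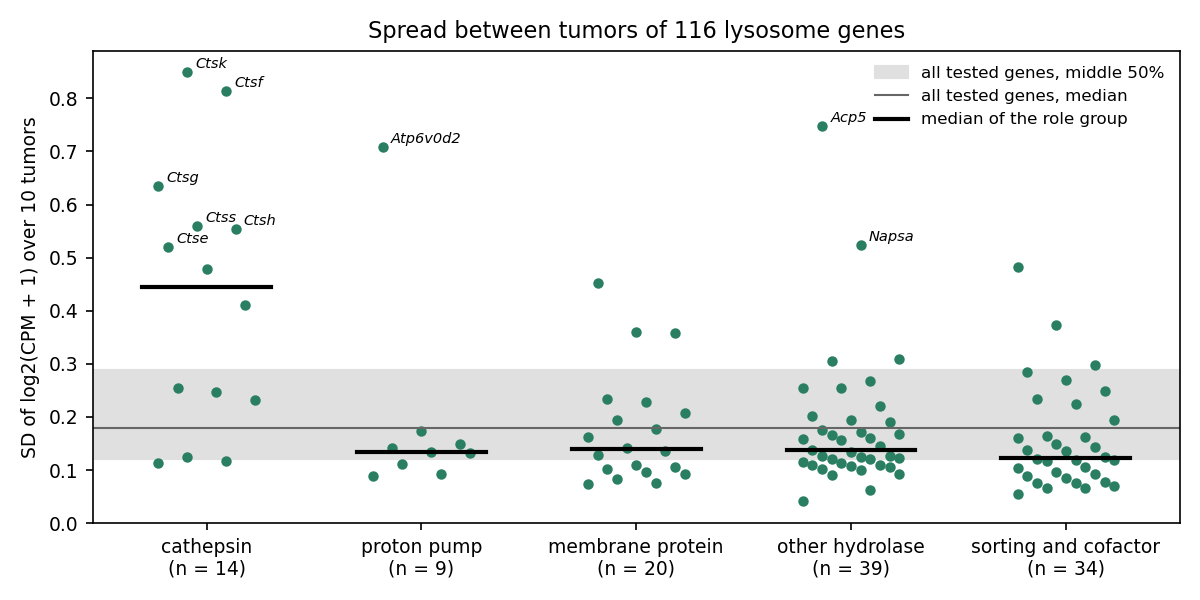
SD of log2(CPM + 1) over the 10 tumors for the 116 tested lysosome genes, 1 point per gene by role, with black bars at role medians, a grey band for the middle 50% of all tested genes and a grey line at their median. The cathepsin median (0.445) lies above the band, and the medians of the other 4 roles lie under the grey line (0.179).

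Ctss, Cd68, Lgmn and Ctsz moved with the macrophage markers of the tumors. The macrophage level was the mean log2(CPM + 1) of 10 markers outside the lysosome list (Csf1r, Adgre1, C1qa, C1qb, C1qc, Mrc1, Fcgr1, Mertk, Aif1 and Itgam), and it ran from 5.49 in NE1 to 7.30 in E5. The 10 markers summed to 1084, 845, 651, 773 and 1157 FPKM in E1 to E5 and 351, 833, 971, 1051 and 841 in NE1 to NE5. C1qb, a complement component, was the most abundant (290.4 FPKM), and none of the 10 was at 0. The relation was computed for 12 genes on the log2(CPM + 1) scale over 10 tumors, with 100000 permutations and Benjamini-Hochberg adjustment over the 12, and 4 passed by both coefficients. For Ctss the coefficients were Pearson's r = 0.98 (permutation p = 1e-05, the smallest possible, adjusted p = 0.00012) and Spearman's rho = 0.93 (permutation p = 0.00027, adjusted p = 0.00162). For Cd68 (macrosialin) r was 0.93 (permutation p = 0.00015, adjusted p = 0.0009) and rho 0.95 (permutation p = 0.0001, adjusted p = 0.0012). For Lgmn r was 0.91 (permutation p = 0.00036, adjusted p = 0.00144) and rho 0.88 (permutation p = 0.00177, adjusted p = 0.00708). For Ctsz r was 0.76 (permutation p = 0.00377, adjusted p = 0.0113) and rho 0.83 (permutation p = 0.00507, adjusted p = 0.0152). Without NE1 and E5, the 2 tumors farthest from the median level, r was 0.96, 0.79, 0.74 and 0.62 in the same order. The Ctsz relation no longer passed on the log2(FPKM + 1) scale (permutation adjusted p = 0.0788) or without E5 alone (r = 0.72, permutation adjusted p = 0.0833). After each group's mean was subtracted, r was 0.985 for Ctss, 0.939 for Cd68, 0.907 for Lgmn and 0.752 for Ctsz.

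The other genes did not pass by both coefficients. For Ctsb r was 0.43 (permutation p = 0.226, adjusted p = 0.323) and rho 0.72 (permutation p = 0.0233, adjusted p = 0.0528). For Lamp1 r was 0.42 (permutation p = 0.242, adjusted p = 0.323) and rho 0.64 (permutation p = 0.0544, adjusted p = 0.0816). Ctsd, Ctsl and Atp6v1b2, a pump subunit outside the annotation, had r of 0.57, 0.55 and 0.36 and rho of 0.70, 0.71 and 0.39 (permutation p from 0.0272 to 0.321, adjusted p from 0.0528 to 0.386). Ctsk and Atp6v0d2 had r of -0.041 and 0.27 and rho of 0.091 and 0.10 (permutation p from 0.441 to 0.888, adjusted p from 0.481 to 0.888). Without NE1 alone Ctsb, Ctsd and Lamp1 passed by Pearson's r (0.77, 0.83 and 0.79, permutation adjusted p = 0.0293 for each), and rho was not recomputed without it. Without NE1 and E5 r was 0.78 for Ctsd, 0.76 for Lamp1, 0.67 for Ctsb, 0.18 for Ctsl and -0.52 for Atp6v1b2. It came to -0.84 for Ctsk and -0.92 for Atp6v0d2, where E3, with the highest Ctsk, had the lowest macrophage level of the remaining 8 tumors (6.46). The labels give no batch within which the relations could be repeated. Whether macrophage content sets the level of any of these genes was not tested.

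**Figure D3:**
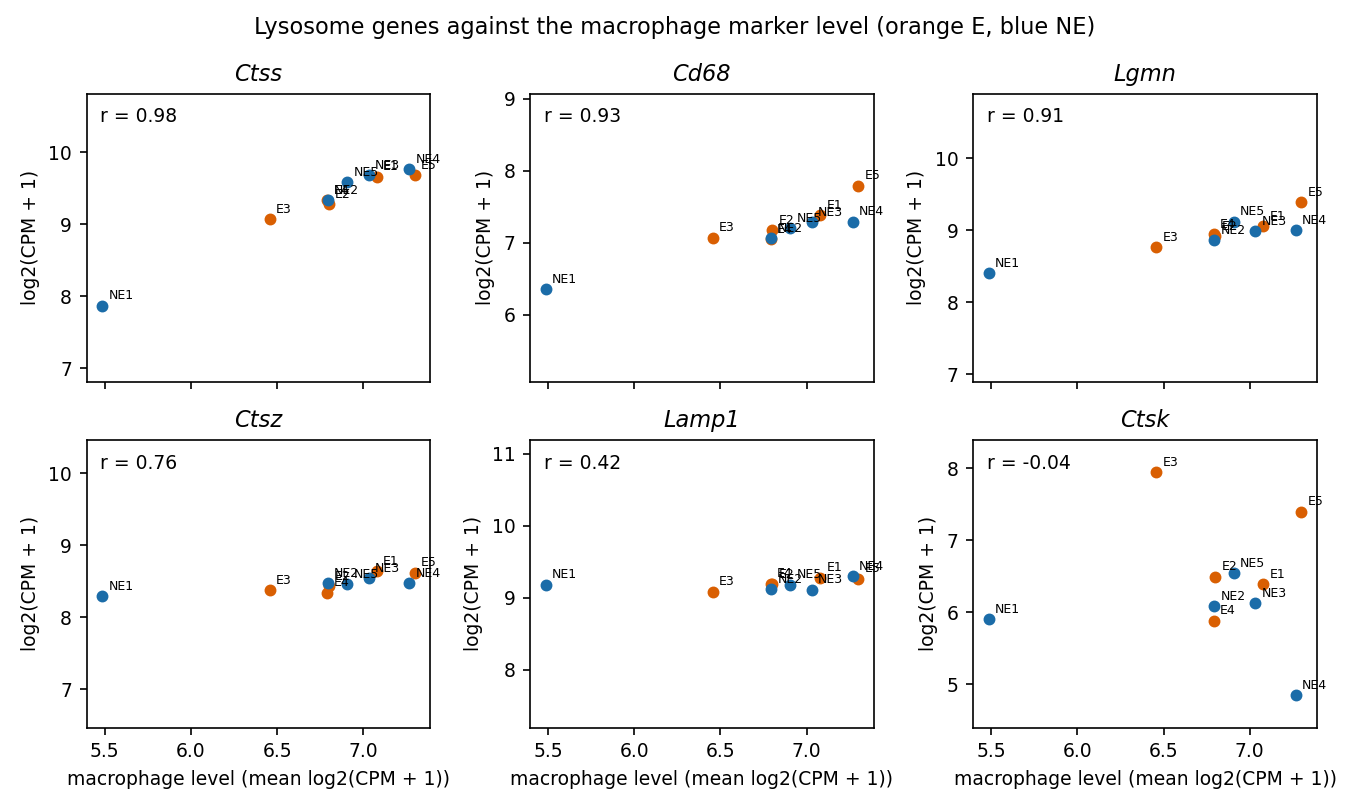
log2(CPM + 1) of 6 lysosome genes (y) against the macrophage marker level, the mean log2(CPM + 1) of 10 markers (x), 1 labeled point per tumor (orange E, blue NE), with equal y spans. Ctss, Cd68 and Lgmn climb from NE1 to E5 (r = 0.98, 0.93 and 0.91), Lamp1 is nearly flat, and Ctsk has no common slope (r = -0.041).

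The comparison of E with NE asked whether lysosome genes differed in tumors of running mice. Calls required a 2-fold change with an adjusted p of 0.05 or less in edgeR's quasi-likelihood test (Benjamini-Hochberg). No lysosome gene met them, and none of the 13517 genes tested did (0% called, smallest adjusted p 0.897). DESeq2 called no lysosome gene by the same thresholds. Of the 116 lysosome genes, 7 (6.03%) had an unadjusted p of at most 0.05, all higher in E, beside 657 of all genes (4.86%), of which 347 were higher (2.57%) and 310 lower (2.29%). DESeq2 gave 8 lysosome genes at that level (6.03% of all genes), and edgeR gave 2 without E5 (2.73% of all genes), 3 without NE4 (4.70%) and 4 without NE5 (4.25%). By FPKM, 4 lysosome genes were higher in every E tumor than in any NE tumor (3.45%, Slc17a5, Glb1, Galns and Sumf1), beside 75 of all genes (0.555%), and none was lower in every E tumor, beside 0.141% of all genes. On CPM scaled by TMM (trimmed mean of M values), Slc17a5 alone stayed apart (0.862%, beside 0.436% of all genes).

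The fold changes were small and mostly on the E side. The median log2 fold change, E over NE, was 0.074 over the 116 genes, from -0.21 for the hyaluronidase Hyal1 to 1.03 for Ctsk, beside a median of -0.014 over all genes tested. Estimates were above 0 for 96 lysosome genes and below 0 for 20 (82.8% above), beside 46.0% above over all genes. Of the 10 macrophage markers, 8 had estimates above 0 and 2 below (median 0.12). Of the 4 epithelial markers tested, 2 were above 0 and 2 below, Krt19 (-0.65) and Epcam (-1.01), with a median of -0.29. The part of these cells in the lysosome estimates was not tested. The all-gene share moved with the scaling, to 55.0% with plain library sizes and 56.5% on log2(FPKM + 1), where the lysosome share was 86.2% and 87.1%. Without E5 the lysosome share was 69.8% and the median 0.031, and without NE1 the share was 73.3%. By role, estimates were above 0 for 14 of 14 cathepsins (median 0.11), 8 of 9 pump genes (0.10), 18 of 20 membrane proteins (0.084), 36 of 39 other hydrolases (0.090) and 20 of 34 sorting and cofactor genes (0.019). With 1 tumor left out, the median ran 0.045 to 0.17 for cathepsins and 0.051 to 0.14 for pump genes. It ran 0.045 to 0.10 for membrane proteins and 0.045 to 0.11 for other hydrolases. Without NE1, the cathepsins Ctsc, Ctse, Ctsh and Ctss had estimates below 0. The genes share tumors, and these counts describe the list without a test.

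**Figure D4:**
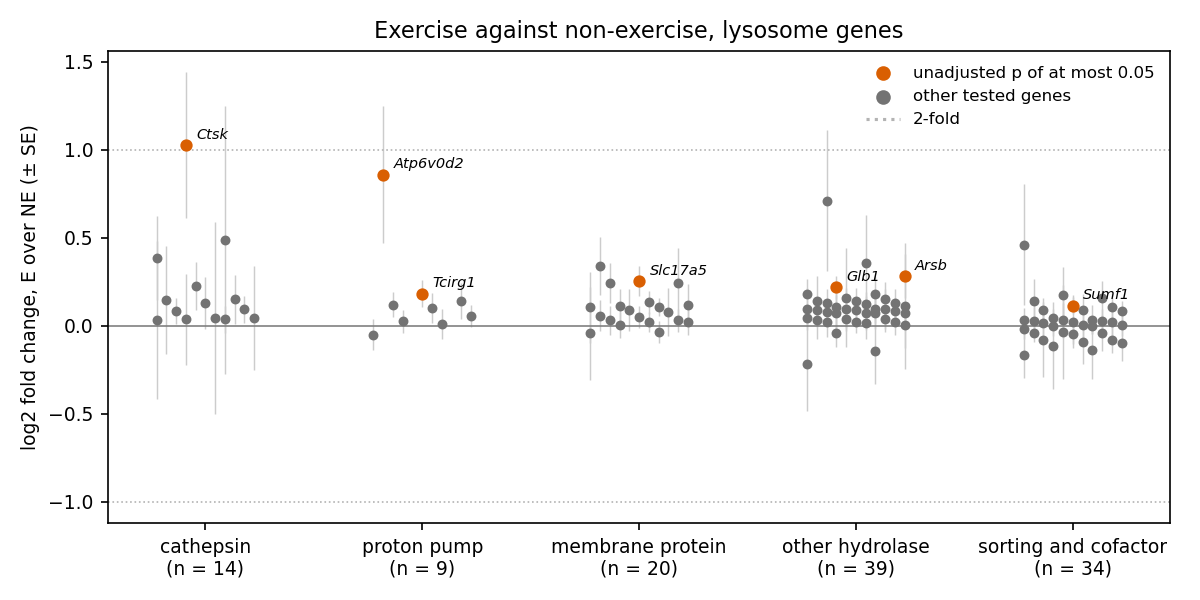
log2 fold change (E over NE, edgeR, bars ± SE) of the 116 tested lysosome genes, 1 point per gene by role, with the 7 genes at an unadjusted p of at most 0.05 in orange and named, and dotted lines at 2-fold. Most points lie just above 0, sorting and cofactor genes straddle it, and Ctsk and Atp6v0d2 stand highest.

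Among cathepsins the largest estimate was that of Ctsk, the collagen-cutting protease of osteoclasts and some fibroblasts and macrophages. Ctsk measured 55.4, 60.2, 159.99, 38.8 and 113 FPKM in tumors E1 to E5 and 39.8, 43.8, 45.5, 17.4 and 59.99 in NE1 to NE5. E3 and E5 were the 2 highest tumors and NE4 the lowest, and E1 and E4 lay inside the NE range. E tumors averaged 85.4 ± 50.1 and NE tumors 41.3 ± 15.4 (SD, n = 5 each), log2 fold change 1.03, SE 0.41, with an unadjusted p of 0.0312 and an adjusted p of 0.897 by edgeR's quasi-likelihood test. Leaving out 1 tumor at a time gave log2 fold changes of 0.66 to 1.21, and the unadjusted edgeR p was above 0.05 in 5 of the 10 fits, those without E3, E5, NE1, NE2 or NE4, and highest without E3 (0.103). Of the other cathepsins, Ctsf (log2 fold change 0.49, SE 0.76), Ctsw (log2 fold change 0.39, SE 0.24), Ctso (log2 fold change 0.23, SE 0.14) and Ctse (log2 fold change 0.045, SE 0.54) had estimates within 2 SE of 0. The others had log2 fold changes of 0.15 for Ctsl (0.016 to 0.23 with 1 tumor left out, lowest without E5), 0.15 for Ctsh, 0.13 for Ctsd, 0.095 for Ctsa, 0.082 for Ctsb, 0.037 for Ctsz, 0.037 for Ctsc and 0.044 for Ctss (SE 0.296). With 1 tumor left out, the range was 0.069 to 0.25 for Ctsd and 0.051 to 0.12 for Ctsa. For Ctsb it was 0.039 to 0.13, and for Ctsz 0.0014 to 0.072. Ctsg, at 0.035, turned below 0 on the FPKM scales. Ctss and Ctsk are neighbors on chromosome 3 (GRCm38, Ctss 95526786 to 95556403 and Ctsk 95499256 to 95509362, both plus strand), 17423 bases apart with 0 protein-coding genes between, yet their tumor patterns were unlike: NE1 was the lowest tumor for Ctss and near the NE mean for Ctsk.

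Acp5 and Atp6v0d2 also had E3 and E5 as their highest tumors. Acp5, the acid phosphatase used as a stain for osteoclasts, measured 21.3, 25.2, 60.1, 13.8 and 40.7 FPKM in tumors E1 to E5 and 22.1, 23.8, 22.7, 8.11 and 20.4 in NE1 to NE5. Again E3 and E5 were highest and NE4 lowest (log2 fold change 0.71, SE 0.40, unadjusted p = 0.103 by edgeR), and the log2 fold change of Acp5 ran 0.34 to 0.91 with 1 tumor left out, lowest without E3. Atp6v0d2, a pump subunit enriched in osteoclasts and some macrophages, measured 3.35, 5.11, 11.4, 4.43 and 11.99 FPKM in tumors E1 to E5 and 2.47, 4.98, 4.73, 2.65 and 4.77 in NE1 to NE5. E5 and E3 were highest and NE1 lowest, just under NE4, while E1 and E4 lay within the NE range (log2 fold change 0.86, SE 0.39, unadjusted p = 0.0498, adjusted p = 0.897 by edgeR). Its p stayed at or below 0.05 in 3 of 10 fits with 1 tumor left out (E1, E2 or E4), and the log2 fold changes ran 0.61 to 1.05. Tcirg1, the a3 subunit that osteoclasts use for acid secretion, measured 29.9, 32.3, 28.2, 27.4 and 33.9 FPKM in tumors E1 to E5 and 25.1, 27.4, 29.7, 22.8 and 25.8 in NE1 to NE5, with E5 and E2 highest and NE4 lowest (log2 fold change 0.18, SE 0.076, unadjusted p = 0.036 by edgeR, above 0.05 without E2, E5, NE1, NE4 or NE5). Other cells' markers moved in the same tumors. The 5 osteoclast genes (4 tested, all 4 estimates above 0, none at p of at most 0.05) summed to 10.6, 11.1, 18.7, 10.05 and 16.03 FPKM in E1 to E5 and 11.7, 10.2, 9.43, 5.50 and 10.5 in NE1 to NE5. Itgb3, the beta3 integrin, was the most abundant (5.84 FPKM), the fusion gene Dcstamp peaked in E3 (4.81), the receptor gene Oscar measured 4.52 in E3, 3.13 in E5 and 0.236 in NE4, and Calcr, the calcitonin receptor, never exceeded 0.112. The 8 fibroblast genes, all with estimates above 0 and none at p of at most 0.05, summed to 347, 465, 245, 578 and 1791 FPKM in E1 to E5 and 109, 245, 273, 547 and 476 in NE1 to NE5, with Col3a1 the most abundant (235) and none at 0. Fibroblast RNA was highest in E5 but low in E3. The part of these cells in the Ctsk values was not tested.

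**Figure D5:**
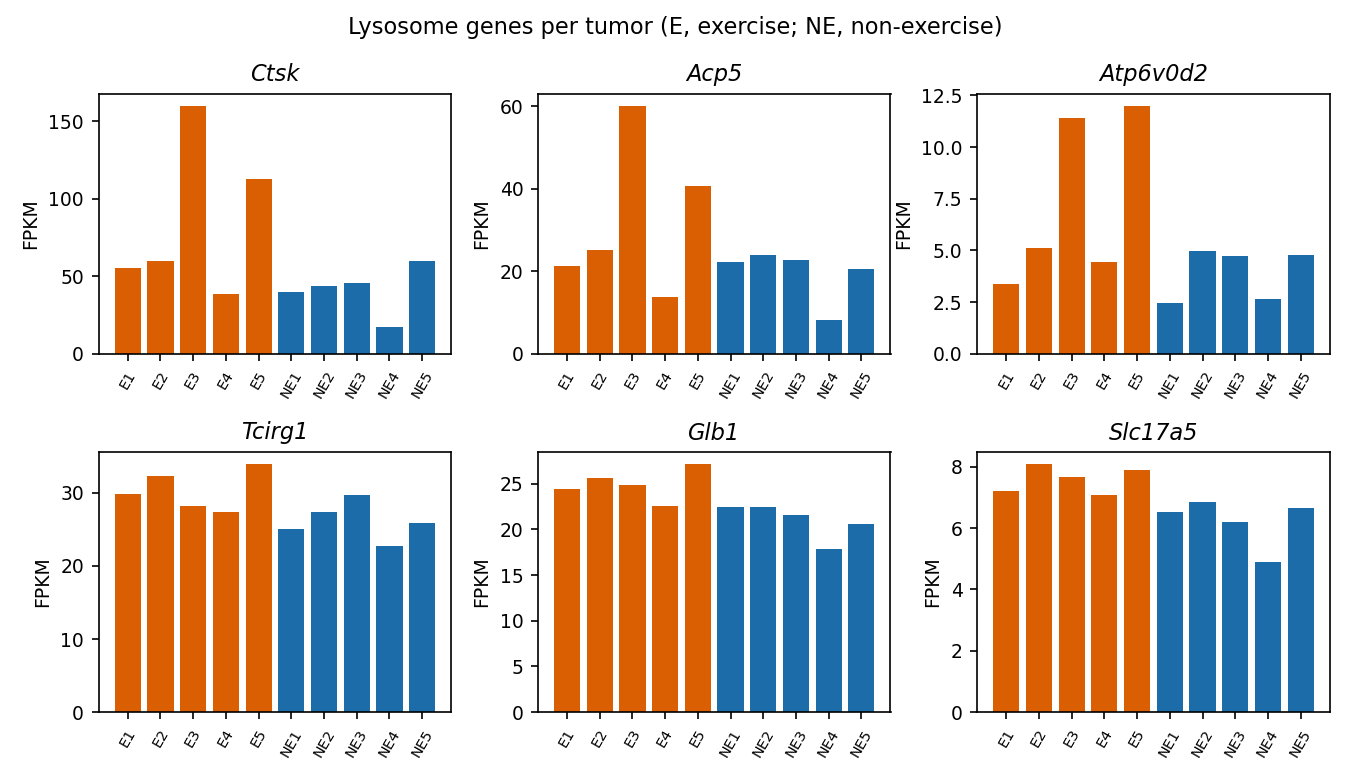
FPKM of 6 lysosome genes in each tumor (bars from 0, orange E1 to E5, blue NE1 to NE5, separate y axes). Ctsk, Acp5 and Atp6v0d2 peak in E3 and E5 and are low in NE4, while Tcirg1, Glb1 and Slc17a5 vary little, with every E bar of Glb1 and Slc17a5 above every NE bar.

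The remaining pump genes differed little. Atp6ap1, an accessory subunit, averaged 67.6 FPKM (log2 fold change 0.025, SE 0.063), Atp6v0d1 47.4, Atp6v0c, which forms the proton-carrying ring, 29.3 and Atp6v0b 20.8. Their log2 fold changes were 0.056, 0.10 and 0.12. Atp6v0a1 (0.14), Atp6v1h (0.0092) and Atp6v0a2 (-0.050) had about 8 FPKM each, and Atp6v0a4, a kidney form, was not tested. The annotation holds mainly the membrane sector of the pump. Of 15 subunit genes outside it, 10 were tested, with 4 estimates above 0 and 6 below (median -0.012), none at p of at most 0.05. Atp6v1g1, of the ATP-driven sector, was the most abundant of them at 112 FPKM.

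Among other hydrolases, Glb1, the lysosomal beta-galactosidase, had the smallest p of all lysosome genes. Glb1 measured 24.4, 25.6, 24.8, 22.6 and 27.1 FPKM in tumors E1 to E5 and 22.5, 22.4, 21.5, 17.8 and 20.6 in NE1 to NE5. The lowest E tumor, E4, was level with the highest NE tumors. E tumors averaged 24.9 ± 1.66 and NE tumors 20.98 ± 1.91 (SD, n = 5 each), log2 fold change 0.22, SE 0.064, unadjusted p = 0.00642 and adjusted p = 0.897 by edgeR's quasi-likelihood test, and p stayed at or below 0.0192 whichever tumor was left out. An exon of Glb1 overlaps Tmppe on the same strand, so reads there cannot be assigned to 1 gene. Arsb, arylsulfatase B, measured 15.03, 16.8, 20.1, 18.01 and 16.8 FPKM in tumors E1 to E5 and 16.6, 16.2, 14.1, 10.02 and 13.1 in NE1 to NE5. NE4 was clearly lowest and E3 highest, and without NE4 the log2 fold change of Arsb was 0.20 with an unadjusted p of 0.0783 by edgeR (log2 fold change 0.28, SE 0.12, unadjusted p = 0.0444 with all tumors). Arsb stayed at or below 0.05 in 3 of 10 fits, those without E1, NE1 or NE2. Of the sulfatases, a group chosen after their values were seen, these had estimates above 0: Arsg 0.36, Arsb 0.28, Sgsh 0.18, Galns 0.12, Arsa 0.10 and Ids 0.024. Sumf1, the enzyme that activates every sulfatase by forming their catalytic formylglycine, measured 26.2, 26.1, 26.02, 27.1 and 26.7 FPKM in tumors E1 to E5 and 23.7, 24.9, 25.5, 20.99 and 24.3 in NE1 to NE5. Its E tumors all lay above its NE tumors, by a small margin (log2 fold change 0.11, SE 0.049, unadjusted p = 0.0389 by edgeR, above 0.05 without E3, E4, E5, NE4 or NE5). Of the abundant hydrolases, Hexa, a subunit of beta-hexosaminidase, averaged 80.1 FPKM (log2 fold change 0.094, SE 0.11), Asah1, acid ceramidase, 79.9 (log2 fold change 0.031, SE 0.11) and Lgmn 214 (log2 fold change 0.14, SE 0.15, from 0.033 to 0.20 with 1 tumor left out, lowest without E5). Gusb, beta-glucuronidase, averaged 30.9 (log2 fold change 0.18, SE 0.089).

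Among membrane proteins, Slc17a5, the sialic acid exporter sialin, measured 7.21, 8.07, 7.65, 7.06 and 7.88 FPKM in tumors E1 to E5 and 6.52, 6.84, 6.20, 4.90 and 6.64 in NE1 to NE5. All E tumors lay above all NE tumors, and NE4 was lowest. The log2 fold change was 0.25 (SE 0.0872), with an unadjusted p of 0.0146 and an adjusted p of 0.897 by edgeR's quasi-likelihood test. It ran 0.19 to 0.29 when 1 tumor was left out, with p at or below 0.0369 in all 10 fits. Cd68 had log2 fold change 0.25, SE 0.20 and measured 134, 117, 105, 106 and 179 FPKM in tumors E1 to E5 and 65.5, 105, 123, 118 and 115 in NE1 to NE5, lowest in NE1 and highest in E5. Its log2 fold change ran 0.10 to 0.31 with 1 tumor left out, lowest without E5. Abcb9, a peptide transporter, had log2 fold change 0.34, SE 0.17 at a mean of 0.881 FPKM. The abundant structural glycoproteins were close to 0, with log2 fold changes of 0.023 for Lamp1, 0.022 for Cd63 and 0.058 for Cd164. Slc11a1, a metal transporter of phagosomes (-0.043), and Mcoln1, a calcium channel (-0.034), were the 2 members of the group below 0.

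Sorting and cofactor genes were the role with the smallest median. Psap measured 968, 761, 619.6, 715 and 898 FPKM in tumors E1 to E5 and 570.4, 737, 816, 909 and 764 in NE1 to NE5, with E1 and NE4 highest and NE1 lowest (log2 fold change 0.024, SE 0.15). Npc2 had log2 fold change 0.10, SE 0.082. The clathrin chains Clta and Cltc (means 87.9 and 76.2 FPKM) had log2 fold changes of -0.019 and -0.043, and Clta turned above 0 (0.012) on log2(FPKM + 1). M6pr, a mannose 6-phosphate receptor, averaged 70.5 FPKM (log2 fold change 0.035, SE 0.081) and the adaptor subunit Ap1s1 67.7 (log2 fold change -0.047, SE 0.055). The extremes were other adaptor subunits, Ap4b1 (log2 fold change 0.46, SE 0.34, mean 0.249 FPKM) and Ap1s2 (log2 fold change -0.17, SE 0.13). Without E5 the median of the role was -0.0054, just below 0.

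Regulators, inhibitors and autophagy genes outside the annotation were counted beside the all-gene share of 46.0% above 0, which itself turned to 55.0% with plain library sizes. Of 23 lysosome regulators 22 were tested, with 7 estimates above 0 and 15 below (median -0.049). The transcription factor genes were low, Tfeb at 1.68 FPKM (log2 fold change -0.13, SE 0.25), Tfe3 at 5.41 (log2 fold change 0.10, SE 0.077) and Mitf at 5.14 (log2 fold change 0.031, SE 0.10). Flcn, a nutrient-signaling partner of TFEB control, alone among regulators was at or below 0.05 (log2 fold change -0.20, SE 0.084, unadjusted p = 0.0407 by edgeR), lower in E. Of 15 cathepsin inhibitors 7 were tested, 3 above 0 and 4 below. The main ones, cystatin C (Cst3, 251 FPKM, log2 fold change 0.025, SE 0.10) and cystatin B (Cstb, 271 FPKM, log2 fold change -0.065, SE 0.060), were about as abundant as Ctsz. The stefin Csta2 (log2 fold change -0.999, SE 0.40, unadjusted p = 0.0318 by edgeR) was lower in E. So was the serpin Serpinb6a (log2 fold change -0.24, SE 0.10, unadjusted p = 0.0432 by edgeR). All 28 autophagy genes were tested, 11 above 0 and 17 below (median -0.029), none at p of at most 0.05. None of these list genes was called.

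The 14 lysosome genes left out by the filter were Ctsj, Ctsm, Atp6v0a4, Lamp3, Dnase2b, Entpd4, Hyal3, Hyal4, Hyal5, Hyal6, Spam1, Ap1m2, Ap3b2 and Psapl1. Ctsj, Ctsm, Spam1 and Entpd4 had no read, and 3 reads in the shallowest tumor correspond to 0.199 CPM, so lower levels were not detectable. All transcript sequence of Entpd4, an apyrase, is shared with Entpd4b (0.0598 FPKM), and reads of the pair cannot be divided between them. Spam1, a hyaluronidase of sperm, and the related Hyal4, Hyal5 and Hyal6 had at most 2 reads in any tumor. Psapl1, a saposin-like gene, had 206 reads in NE5 (3.78 FPKM), 1 read in E3 (0.0190 FPKM) and no read in any other tumor of either group.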

How the data were processed

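RNA was sequenced from 5 E and 5 NE tumors (for the extraction the labels name Trizol and the study's sequencing methods a Qiagen column kit). The authors deposited read counts and FPKM per mouse Ensembl gene. The study's methods name Hisat2, Stringtie, TMM and a rat genome, how the counts were made and the build behind the table are not given in the sources used here, and the deposited FPKM equal count per length and total (largest relative deviation 5.11e-15), without TMM. Exon coordinates were taken from GRCm38 (GENCODE) by Ensembl ID and promoters from RefSeq GRCm38.p6. The library kit's use of strand is not stated, so reads of overlapping genes on either strand are uncertain (among named genes Abcb9, Acp5, Ap4b1, Arsa, Arsb, Arsg, Atp6v0a2, Atp6v0a4, Atp6v0b, Atp6v1h, Ctsa, Ctsb, Ctsd, Ctsl, Ctsm, Ctsw, Ctsz, Entpd4, Entpd4b, Glb1, Hexa, Hyal1, Hyal3, Lamp1, Napsa and Sgsh).

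Counts were tested with edgeR 4.0.16 in R 4.3.3 (filterByExpr, TMM, glmQLFit, glmQLFTest, E against NE, no covariates), fitted and adjusted by Benjamini-Hochberg over 13517 genes. A gene was called from a 2-fold change with an adjusted p up to 0.05. Log2 fold changes are E over NE. SD and relations used log2(CPM + 1) after TMM. Relations used Python 3.11.15 and numpy 2.4.6. On simulated counts for E against NE (13425 genes), 123 of 200 genes changed by 1.2 on the log2 scale were recovered, with 5 false calls. Counting limits cover counting error only. The alternatives were DESeq2 1.42.0, edgeR's exact test, limma 3.58.1 on log2(FPKM + 1) and log2(FPKM + 0.1), library sizes without TMM, no filter, at least 10 counts in every tumor, a replicate block and leaving out each tumor. No 2 libraries agreed within sampling noise (45 pairs, lowest chi-square per degree of freedom 8.51).

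Named were all cathepsins, the 20 most abundant lysosome genes, the 3 smallest p of each role, the 5 largest SD, the 12 genes of the macrophage relation and, outside the annotation, regulators, inhibitors and autophagy genes at p of at most 0.05 with Tfeb, Tfe3, Mitf, Cst3 and Cstb. Other sulfatases, Psapl1, Entpd4b, range ends and the genes at the filter were named after their values were seen, and the list of 15 pump subunits was added by symbol after the table was read. The members and lists were chosen with earlier results of these data known. Some items, 1 of the 12 relations among them, are not reported here.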

Additional observations from a re-analysis of the deposited data

Results flagged for a closer look

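Within each group of 5 tumors, the highest or lowest tumor was compared with its nearest neighbor by the gap divided by the range of the group (Dixon's 95% limit). Of 116 groups examined 10 passed the limit, where 1 in 20 would be about 5.8. That figure is not the number chance gives for this set. The groups of Ctsj and Ctsm, without reads, could not pass. Acp5 was named for its large SD, Psapl1 and Galns were named after their values were seen, and the genes share tumors.

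NE4, the tumor with 9822 FPKM summed over muscle genes, stood apart in 4 genes. It was far below the other NE tumors in Acp5 (8.11 FPKM) and Galns (12.005 FPKM) and far above them in Ctsd (99.9 FPKM) and Ctsf (1.06 FPKM). E5, the tumor with the most fibroblast and neutrophil RNA, was far above the other E tumors in Ctsl (146 FPKM) and Ctsf (1.41 FPKM). NE1, with the lowest macrophage level, was far below the other NE tumors in Gusb (24.04 FPKM) and in the share of reads on sorting and cofactor genes (0.535%). Psapl1 stood apart in NE5 (3.78 FPKM) and, at a level of a single read, in E3 (0.0190 FPKM). The part of the muscle, fibroblast, neutrophil and macrophage RNA in these values was not tested.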

How the results depend on the processing

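No lysosome gene was called under any of the 18 alternatives. The number of lysosome genes at an unadjusted p of at most 0.05, 7 in the fit reported, was 8 with DESeq2, 4 with edgeR's exact test (2.60% of all genes), 12 with limma on log2(FPKM + 1) (4.76%), 11 on log2(FPKM + 0.1) (4.79%), 11 with library sizes without TMM (4.68%) and 2 to 10 when 1 tumor was left out (2 without E5, 3 without NE4, 4 without NE5 and 10 without NE1, 2 of those lower in E, beside 9.90% of all genes). Over all genes, 657 in the fit reported became 1350 without NE1, 372 without E5, 400 without NE3 and 352 with the exact test. The causes were not tested. Of 49 named lysosome genes, 35 kept their direction in every alternative. Clta turned to 0.012 on both FPKM scales and to 0.014 without TMM, and Ctsg to -0.098 on log2(FPKM + 1) and -0.16 on log2(FPKM + 0.1). With 1 tumor left out, log2 fold changes spanned -0.028 to 0.095 for Asah1, -0.0079 to 0.058 for Atp6ap1, -0.013 to 0.062 for Cd63, -0.044 to 0.0071 for Clta, -0.10 to 0.011 for Cltc, -0.15 to 0.15 for Ctsc, -0.24 to 0.24 for Ctse, -0.30 to 1.57 for Ctsf, -0.43 to 0.28 for Ctsg, -0.039 to 0.32 for Ctsh, -0.16 to 0.17 for Ctss, -0.010 to 0.082 for M6pr, -0.058 to 0.12 for Psap and -0.0082 to 0.052 for Ids, and the median of sorting and cofactor genes -0.0054 to 0.031. That median was 0.056 on log2(FPKM + 0.1). The r with the macrophage level spanned 0.30 to 0.77 for Ctsb, 0.49 to 0.83 for Ctsd, 0.72 to 0.82 for Ctsz, -0.44 to 0.22 for Ctsk, 0.31 to 0.79 for Lamp1 and -0.31 to 0.51 for Atp6v0d2, and r for Ctsz was 0.67 on log2(FPKM + 1). Read shares by role moved by less than their spread. The study calls its sequenced tumors matched pairs without saying how they were matched. Taken over all genes tested, tumors with the same replicate number did not deviate together. Correlations of their deviations ran from -0.32 to 0.32, and 1 of 5 E tumors correlated best with its own number. Single genes can differ from this all-gene figure. With the replicate block, 6 genes had an unadjusted p of at most 0.05, 5 of them shared with the 7, and the log2 fold change of Ctsg was -0.19. Under that block the edgeR fit gave unadjusted p = 0.0718 for Arsb and 0.0705 for Sumf1, the ones lost, 0.00401 for Ctsk and 0.0133 for Atp6v0d2 (adjusted p = 0.871 for each). The SE fell with the block for Ctsk (0.41 to 0.21) and Atp6v0d2 (0.39 to 0.22), and also for Glb1, Slc17a5 and Tcirg1. It rose for Arsb (0.12 to 0.14) and Sumf1 (0.049 to 0.054). Depth limited genes near 3 reads, and a p above the threshold does not show that the groups were alike.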

Other observations

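Beside Psapl1, the differentiated keratinocyte list was present in NE5, at 28.1 FPKM summed over 6 genes and at most 1.09 in any other tumor, with Krtdap the most abundant. Of the lists of other cells, the neutrophil list had 5 of 10 genes tested, all with estimates above 0 and 2 at an unadjusted p of at most 0.05 by edgeR, with S100a9 the most abundant (mean 23.4 FPKM). Those 2, S100a8 and S100a9, were by far highest in E5: S100a8 measured 1.88, 2.47, 2.31, 3.81 and 101 FPKM in tumors E1 to E5 and 1.93, 1.08, 2.09, 6.28 and 4.18 in NE1 to NE5, and S100a9 measured 2.60, 2.98, 3.35, 10.2 and 189 FPKM in tumors E1 to E5 and 3.15, 2.46, 2.61, 9.27 and 8.15 in NE1 to NE5, so that without E5 the E values lay within the range of NE for S100a8 and reached just above it for S100a9. The muscle list had 11 of 12 genes tested, all with estimates below 0 and none at that level. Dendritic cell genes (3 of 8 above 0), T and NK cell genes (4 of 10), B cell genes (1 of 3 tested) and endothelial genes (4 of 8) were mixed in direction, and none of these had an unadjusted p of at most 0.05. Of the 4 epithelial genes tested, Krt19 (log2 fold change -0.65, SE 0.20, unadjusted p = 0.00777 by edgeR) and Epcam (log2 fold change -1.01, SE 0.39, unadjusted p = 0.0252 by edgeR) were lower in E, and neither was called. The other 2 had estimates above 0.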
